A study of Mus musculus with 37 samples.

Results

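The 39 interferon-stimulated genes described here are genes that cells switch on after interferons bind their receptors, and they were taken by symbol from a table of 39017 genes, which held all 39. Of these genes 20 form 2 arms. The type I-leaning arm holds the 10 Ifit, Oas and Mx genes, and the gamma-leaning arm holds the 10 Gbp and Irgm genes. RNA was sequenced in bulk from 37 subcutaneous tumours, each taken 3 weeks after clones of mouse pancreatic tumour cells had been placed under the skin of C57BL/6 mice that received no treatment. The labels sort the tumours by a T cell phenotype. The T cell high group held 15 tumours of 7 clones, the T cell intermediate group held 4 tumours of 2 clones, and the T cell low group held 15 tumours of 7 clones. For the other 3 tumours no phenotype is labelled, and they enter no comparison. Neither the measurement behind the phenotype nor the genotype of the tumour cells is stated.

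Type I interferons and interferon gamma act on cells by separate receptors. Type I interferons, such as interferon beta, signal through Ifnar1 and Ifnar2 to a complex that includes Stat2 and Irf9 and binds the interferon-stimulated response element, while interferon gamma, made mainly by T and NK cells, signals through Ifngr1 and Ifngr2 to factors that bind the gamma-activated site. Many targets respond to both, so the arms name a tendency and not an exclusive source. Most inbred laboratory mouse strains, C57BL/6 among them, carry damaged Mx1 and Mx2 alleles, and their transcripts still respond to interferon.

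The libraries were of 2 kinds. In 17 labelled libraries of 16 clones the liver and heart genes Myh6, Myh7, Cps1 and Serpina3k summed to between 257.7 and 5922 counts in each 1000000 reads counted (CPM), and in the other 17, of 15 clones, to between 0.0652 and 0.538 CPM. Alb, a liver gene outside that sum, was still found among the latter 17. It held 123.6 CPM in bulk_6419c1, 16.7 CPM in bulk_6499c3, 16.4 CPM in bulk_6422c5 and 10.8 CPM in tumour 2 of bulk_2838c3. The first kind was made up of first tumours plus a further tumour of clone bulk_2669c4. The second kind was made up of later tumours, so tumour number and kind of library cannot be told apart. Depth, in units of 1000000 counts (M), was 7.39 to 102.3 M (median 30.7) with those transcripts and 26.5 to 44.4 M (median 33.3) without them. Among the libraries with the transcripts, 7, each of a different clone, held over 4000 CPM and were nearly alike across 14721 genes, with pairwise Pearson correlations of 0.984 to 0.995, while libraries of different clones without the transcripts correlated at 0.903 to 0.978. The phenotype comparisons below therefore use the libraries without the transcripts, with the tumours of a clone summed and the clone as the replicate. They hold 7 high clones (8 tumours), 2 intermediate clones (2 tumours) and 6 low clones (7 tumours).

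Promoter sequences are shown for 5 members because they carry, or lack, the kinds of element through which the pathways act. RefSeq promoters (GRCm38.p6) were used for 25 of the 39 members, with Iigp1 left out and no counts repeated with it. Their starts lay within 2 kb of the GENCODE M21 gene start except for Gbp5, where the RefSeq start lay 97.9 kb upstream of it and outside the Gbp cluster described below, and Irgm2, where it lay 15.4 kb downstream. An ISRE-like element was counted where 2 copies of GAAA stood with any 2 bases between them on either strand, and a GAS-like element where TTCNNNGAA occurred, which reads the same on both strands. Neither pattern can contain the other, although they may share bases. Of the 25 windows, which run from 250 bases before to 50 bases after the start, 17 (68.0%) held the ISRE-like element, against 943 of all 27025 promoters (3.49%), and 8 (32%) held the GAS-like element, against 2288 of all promoters (8.47%). All 6 gamma-leaning promoters that were matched held the ISRE-like element and 3 also the GAS-like one, while 4 and 2 of the 7 type I-leaning promoters did. The 150 bases before the start are printed below in the direction of transcription with matches in capitals. They lie at chr19:34640739-34640888 for Ifit1, chr5:114923090-114923239 for Oasl1, chr3:142620513-142620662 for Gbp2, chr11:58214827-58214976 for Irgm2 and chr11:53769864-53770013 for Irf1, each on the plus strand.
Ifit1: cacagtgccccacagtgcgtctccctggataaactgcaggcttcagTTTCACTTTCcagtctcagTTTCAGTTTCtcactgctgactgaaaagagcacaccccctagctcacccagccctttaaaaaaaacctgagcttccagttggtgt
Oasl1: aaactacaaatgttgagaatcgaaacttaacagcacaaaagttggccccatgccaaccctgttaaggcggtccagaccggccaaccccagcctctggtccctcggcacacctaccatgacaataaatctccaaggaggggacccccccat
Gbp2: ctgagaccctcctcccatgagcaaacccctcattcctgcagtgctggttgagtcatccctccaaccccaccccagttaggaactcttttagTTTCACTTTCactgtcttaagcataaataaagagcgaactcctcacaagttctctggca
Irgm2: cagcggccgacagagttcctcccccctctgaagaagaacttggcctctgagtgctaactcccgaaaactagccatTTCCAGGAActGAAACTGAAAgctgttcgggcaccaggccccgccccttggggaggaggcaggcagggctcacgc
Irf1: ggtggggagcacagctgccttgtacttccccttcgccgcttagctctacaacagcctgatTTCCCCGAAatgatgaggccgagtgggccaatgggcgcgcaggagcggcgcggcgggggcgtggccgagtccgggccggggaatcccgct

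Ifit1 held 2 ISRE-like matches, first bases 104 and 85 bases before the start, and Gbp2 held 1 at 59 bases before it. In Irgm2 a GAS-like match at 75 bases before the start stood just ahead of an ISRE-like match at 64. Irf1 held a GAS-like match alone, at 90 bases before the start, and Oasl1 held neither. Both Oasl promoters, and those of Irf7, Irf9, Ifi44 and Xaf1, were the 6 without a match. A match describes letters and not binding.

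Several members sit side by side in the genome (GENCODE M21, GRCm38). Ifit1, Ifit2 and Ifit3 lie within 99.3 kb of chromosome 19, Oas1a, Oas2 and Oas3 within 177.2 kb of chromosome 5, Oasl1 and Oasl2 within 41.0 kb of chromosome 5, and Mx1 and Mx2 within 113.9 kb of chromosome 16. The Gbp genes form 2 clusters, Gbp2, Gbp3, Gbp5 and Gbp7 over 107.7 kb of chromosome 3 and Gbp4, Gbp6, Gbp8 and Gbp9 over 279.5 kb of chromosome 5. Gbp8, Gbp9 and Gbp4 overlap each other in the annotation, as do Igtp and Irgm2, and Gbp, Ifit3 and Oas1a genes have close copies, so reads could be split or shared among these members and their values are less certain.

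The members varied widely between clones, and most of them varied together. Over the 15 clones without liver and heart transcripts, the highest clone exceeded the lowest by 2.72- to 15.3-fold among the type I-leaning genes (median 7.69), by 3.55- to 14.6-fold among the gamma-leaning genes (median 7.93) and by up to 45.2-fold among the other members, the last for Ido1. Clone bulk_7160c2, labelled high, was the highest for 21 of the 39 members, and clone bulk_7160c5, labelled intermediate, for 10. At the other end, clone bulk_6422c5, labelled intermediate, was the lowest for 19 members and clone bulk_6694c2, labelled low, for 12. Averaged over all 39 members as log2 CPM relative to each gene's mean over the clones, the level was 1.05 in bulk_7160c2, 0.82 in bulk_7160c5, 0.58 in bulk_6421c2 (high), 0.57 in bulk_6499c3 (low) and 0.55 in bulk_6556c4 (high). It was -0.59 in bulk_6499c4 and -0.74 in bulk_6620c1, both high, -1.03 in bulk_6694c2 and -1.30 in bulk_6422c5. High clones therefore stood both near the top and near the bottom of this order, and both ends held more than 1 phenotype. In bulk tumours, fewer cells of a type and less RNA per cell cannot be told apart.

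**Figure D1:**
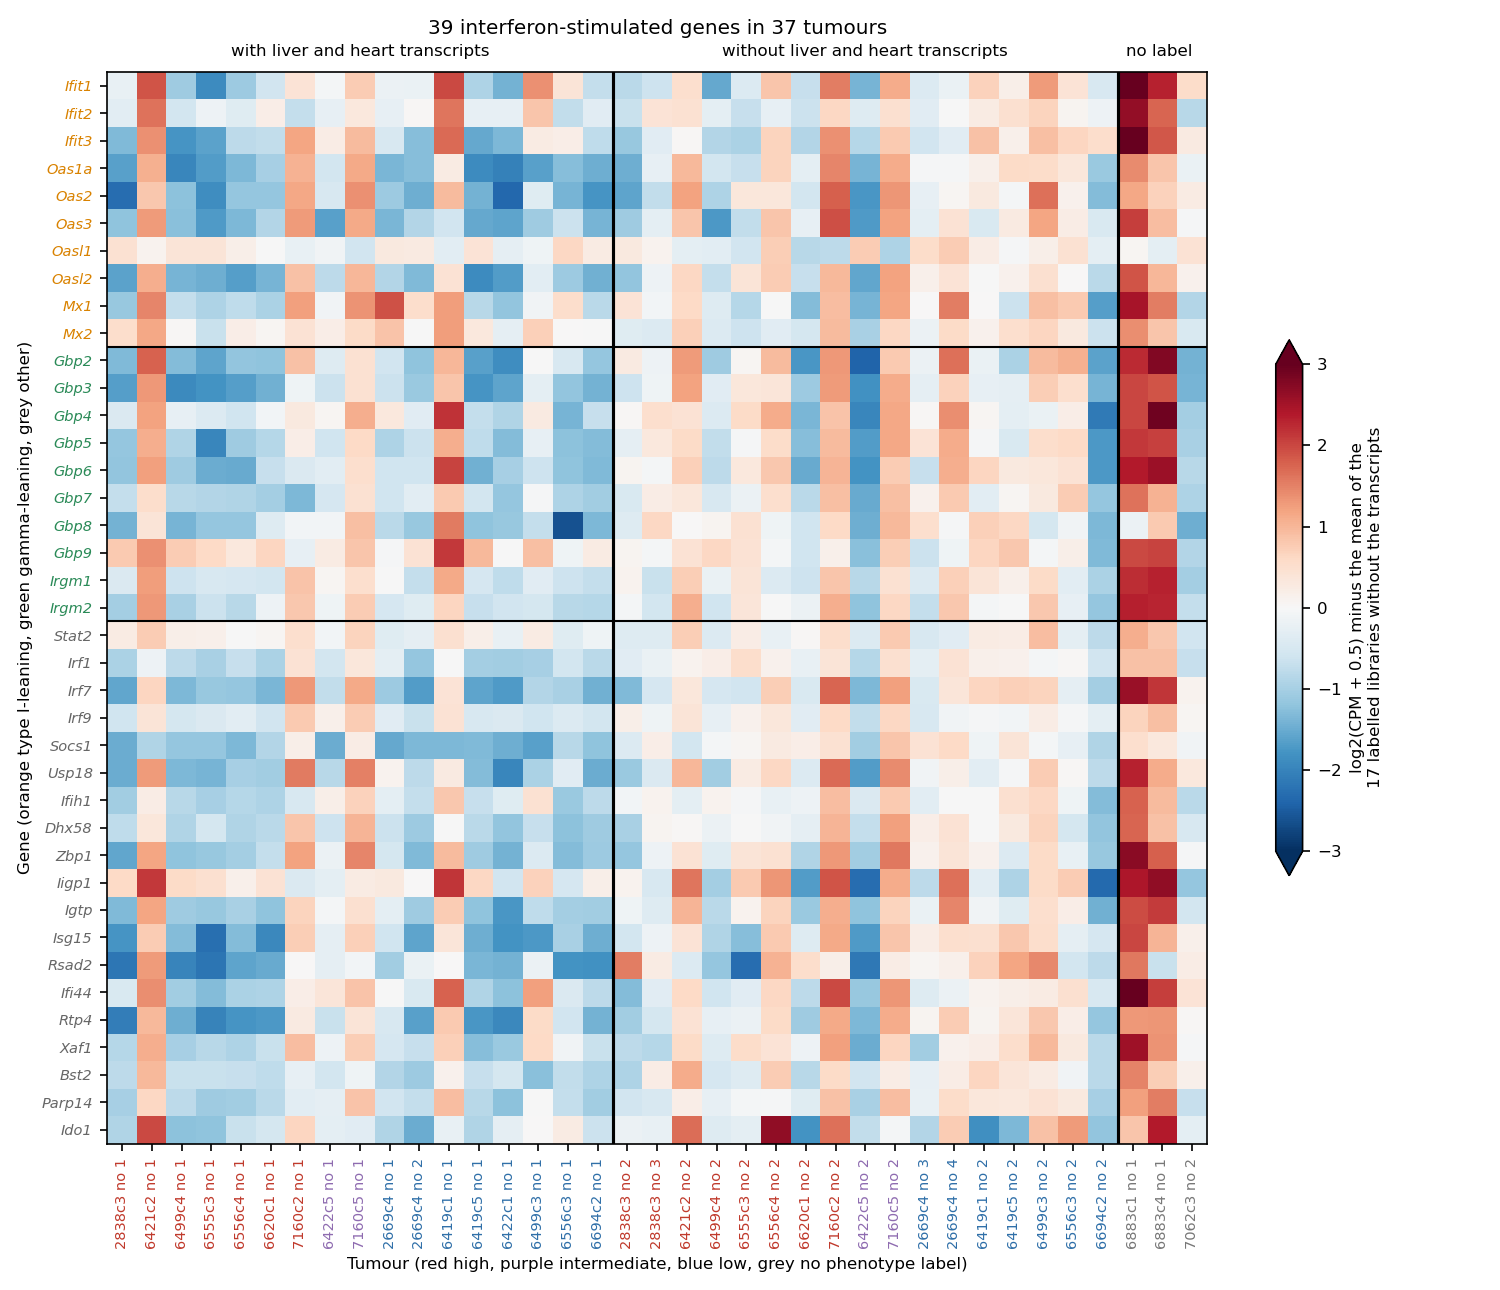
Each row is a member and each column a tumour, grouped by the presence of liver and heart transcripts and by phenotype label; colour gives log2(CPM + 0.5) minus the mean of the 17 labelled libraries without the transcripts. Clones bulk_7160c2 and bulk_7160c5 are red and bulk_6422c5 and bulk_6694c2 blue in most rows without the transcripts, and 2 unlabelled tumours, bulk_6883c1 and bulk_6883c4, are red in most rows.

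High and low clones were compared first. No gene of either arm, and no other member, passed the test. In edgeR's quasi-likelihood test with Benjamini-Hochberg adjustment, 0 of the 39 members were called at an adjusted p of 0.05, against 0.0% of the 17905 genes tested, and at an unadjusted p under 0.05 the counts were 0 of 39 against 6.52% of all genes (1168). DESeq2 called 35 genes, none of them a member. The high and low clones overlapped for all 39 members, a count that was not made over all genes. The p-values of this test describe the spread between these clones. Nothing in the labels says whether clones whose names share a number, such as bulk_7160c2 and bulk_7160c5, are independent of each other.

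The type I-leaning log2 differences, high minus low, had a median of -0.21 and were positive for 4 of 10 genes, beside a median of -0.003 and 49.6% positive over all genes tested. Ifit1, which binds foreign RNA by its end, ranged over 1.96, 4.91 and 20.3 CPM (lowest, median and highest clone) in high clones and over 4.58, 8.32 and 16.9 CPM in low clones. The highest values were those of bulk_7160c2 among the high clones and bulk_6499c3 among the low clones, and the groups overlapped. Means of Ifit1 were 8.10 ± 6.45 CPM in high clones (SD, n = 7) and 9.08 ± 4.48 CPM in low clones (SD, n = 6), and the log2 difference was -0.16 (SE 0.53). For its neighbour Ifit2, another RNA-binding antiviral protein, high clones held 4.999, 7.04 and 13.2 CPM and low clones 7.55, 9.54 and 13.6 CPM.

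The Oas proteins make short chains of linked adenosines that activate RNase L. Oas2 spanned 5.36, 14.9 and 41.8 CPM in high clones, against 4.48, 12.1 and 37.9 CPM in low clones, nearly the same range at both ends. For Oas3 the high clones ran from 2.22 through a median of 7.09 to 33.98 CPM, and the low clones from 6.02 through 9.90 to 19.8 CPM. The lowest and the highest Oas3 value of these 13 clones were both in the high group. Oasl1, which in mice holds back the translation of Irf7, gave 18.6, 26.8 and 56.5 CPM in high clones and 27.2, 38.4 and 53.9 CPM in low clones, and its log2 difference of -0.40 (SE 0.31) had an adjusted p of 0.862 in edgeR. The remaining type I-leaning values were -0.45 for Ifit3, 0.22 for Oas1a, 0.20 for Oasl2, -0.35 for Mx1 and -0.27 for Mx2.

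Among the gamma-leaning genes 8 of 10 log2 differences were positive, but their median was 0.05. Gbp2, a GTPase that attacks the membranes around intracellular microbes, held 9.24, 33.3 and 79.6 CPM in high clones and 10.1, 44.9 and 74.0 CPM in low clones. Its means of 44.3 ± 28.9 CPM in high clones (SD, n = 7) and 42.9 ± 28.1 CPM in low clones (SD, n = 6) differed by far less than either SD. Gbp4, of the chromosome 5 cluster, held 1.79, 7.47 and 12.3 CPM in high clones and 0.874, 5.16 and 11.5 CPM in low clones. In low clones its lowest value was that of bulk_6694c2.

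Gbp6 ran over 1.38, 6.08 and 10.3 CPM in high clones, against 1.12, 6.48 and 7.88 CPM in low clones. The low clone bulk_6694c2, at 1.12 CPM, stood far below the other low clones, and the high clone bulk_6620c1 was lowest of the high ones. Irgm2, an immunity-related GTPase that restrains its effector relatives, held 10.9, 16.7 and 36.4 CPM in high clones and 7.20, 16.3 and 29.6 CPM in low clones. Gbp2, Gbp3, Gbp5, Gbp7, Gbp8, Gbp9 and Irgm1 had log2 differences between -0.02 and 0.32.

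**Figure D2:**
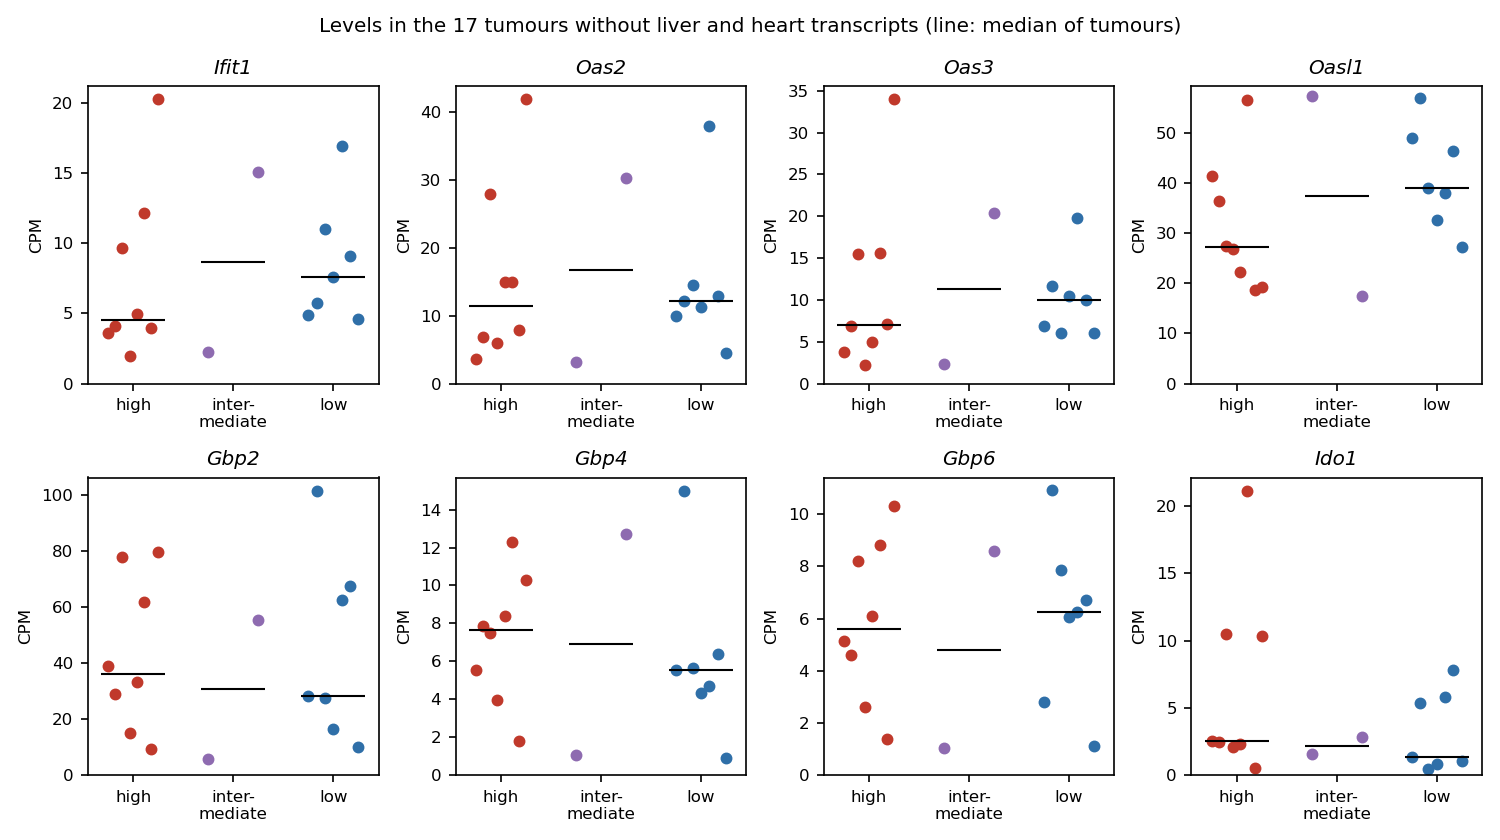
Points are the 17 labelled tumours without liver and heart transcripts, in CPM, for 4 type I-leaning genes, 3 gamma-leaning genes and Ido1, with high left, intermediate in the middle and low right; lines are medians of tumours. The groups overlap in every panel, and the 2 intermediate tumours lie far apart in every panel except that of Ido1.

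The other members were few per role. All 4 transcription factor genes had small positive log2 differences between high and low clones, with a median of 0.13. Irf9, the DNA-binding part of the type I complex, held 29.2, 40.3 and 55.7 CPM in high clones and 30.2, 35.3 and 42.9 CPM in low clones. Its log2 difference was 0.23 (SE 0.20). Values were 0.03 for Stat2, its partner, 0.14 for Irf1, a factor induced by interferon gamma, and 0.11 for Irf7, which amplifies type I interferon production.

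The feedback inhibitors Socs1, which blocks the receptor kinases, and Usp18, which removes Isg15 from proteins, had log2 differences of 0.08 and 0.48. Those of the sensors were 0.07 for Ifih1, which detects long double-stranded RNA, 0.05 for its relative Dhx58 and 0.32 for Zbp1, which detects nucleic acids in the Z form. Iigp1, an effector GTPase, ran over 4.8, 28.3 and 61.3 CPM in high clones and 2.87, 18.9 and 36.5 CPM in low clones, and its relative Igtp had a log2 difference of 0.16. The Iigp1 ranges of both groups overlapped, with the highest values in high clones.

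Of the 7 remaining antiviral and effector genes, 3 had positive log2 differences and the median was -0.09. Rsad2, which makes a nucleotide that ends viral RNA chains, held 2.80, 17.6 and 32.6 CPM in high clones and 8.78, 21.0 and 43.0 CPM in low clones. The others were Isg15, a ubiquitin-like tag (-0.15), Ifi44 (0.45), Rtp4 (-0.09), Xaf1, a binder of the apoptosis inhibitor Xiap (0.08), Bst2, which tethers virus particles to the cell surface (0.11), and Parp14, an ADP-ribosyltransferase (-0.13). Ido1, which starts tryptophan breakdown, had the largest difference of the 39 members, 1.11 (SE 0.80), with an adjusted p of 0.845 in edgeR. Its values were 0.498, 2.50 and 21.1 CPM in high clones and 0.467, 2.43 and 7.80 CPM in low clones, so the medians nearly met and 3 high clones, bulk_6556c4, bulk_6421c2 and bulk_7160c2, stood above all the low ones.

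No gene on the lists around the members was called. Of 15 genes for ligands, receptors and signalling, 12 could be tested, 6 had positive differences and 0 were called, and Ifnb1, Ifna2 and Ifna4 were too low to test. Ifnar1, a type I receptor chain whose unadjusted p was below that of every member, held 83.0, 102.9 and 115.0 CPM in high clones and 91.5, 127.0 and 131.6 CPM in low clones, and its log2 difference was -0.31, with an unadjusted p of 0.0158 and an adjusted p of 0.711 in edgeR. None of 9 upstream sensor genes and none of 11 further interferon targets was called, and 5 and 8 of them had positive differences. The 11 targets had log2 differences from -0.44 to 0.68, with 3 negative. The positive ones included 0.68 for the chemokine gene Cxcl9 and 0.68 for Nlrc5, an activator of MHC class I genes. They also included 0.67 for the immunoproteasome gene Psmb9 and 0.62 for B2m. Another chemokine gene, Cxcl10, ran from 2.63 to 14.4 CPM in high clones and from 6.12 to 19.9 CPM in low clones.

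T cell transcripts had larger differences, none of them called. The 5 tested T and NK cell markers all had positive log2 differences, with a median of 1.12. Trbc2, a T cell receptor chain, had the largest of them, and the smallest was 0.19. Trbc2 held 0.543, 2.08 and 5.86 CPM in high clones and 0.175, 0.550 and 1.19 CPM in low clones. Its log2 difference was 2.24 (SE 0.51), with an unadjusted p of 0.00051 and an adjusted p of 0.705 in edgeR. Another marker, Cd3e, ran from 0.294 to 2.82 CPM in high clones and from 0.175 to 2.60 CPM in low clones. Trbc2 and Cd3e were 1.69 and 2.82 CPM in bulk_2838c3, but 5.86 and 1.84 CPM in bulk_6556c4. Summed over the 6 markers, T and NK cell transcripts were 4.12 to 15.3 CPM in high clones and 1.57 to 11.6 CPM in low clones, and no marker was at 0 in all clones of either group. The macrophage markers summed to 402.7 to 622.3 CPM in high clones and 210.5 to 746.4 CPM in low clones. The part of either cell type in the members' values was not tested.

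Single clones turned the sign of many of these differences: positive members numbered between 13 of 39, without bulk_7160c2 or without bulk_6694c2, and 30 of 39, and the gamma-leaning median was -0.06 without bulk_7160c2. Without the libraries that held over 10 CPM of Alb, whose sum with the other liver and heart genes was 0.0652 to 7.75 CPM in high clones and 0.210 to 124.1 CPM in low clones, 30 of 39 members were positive and the type I-leaning median was 0.12.

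**Figure D3:**
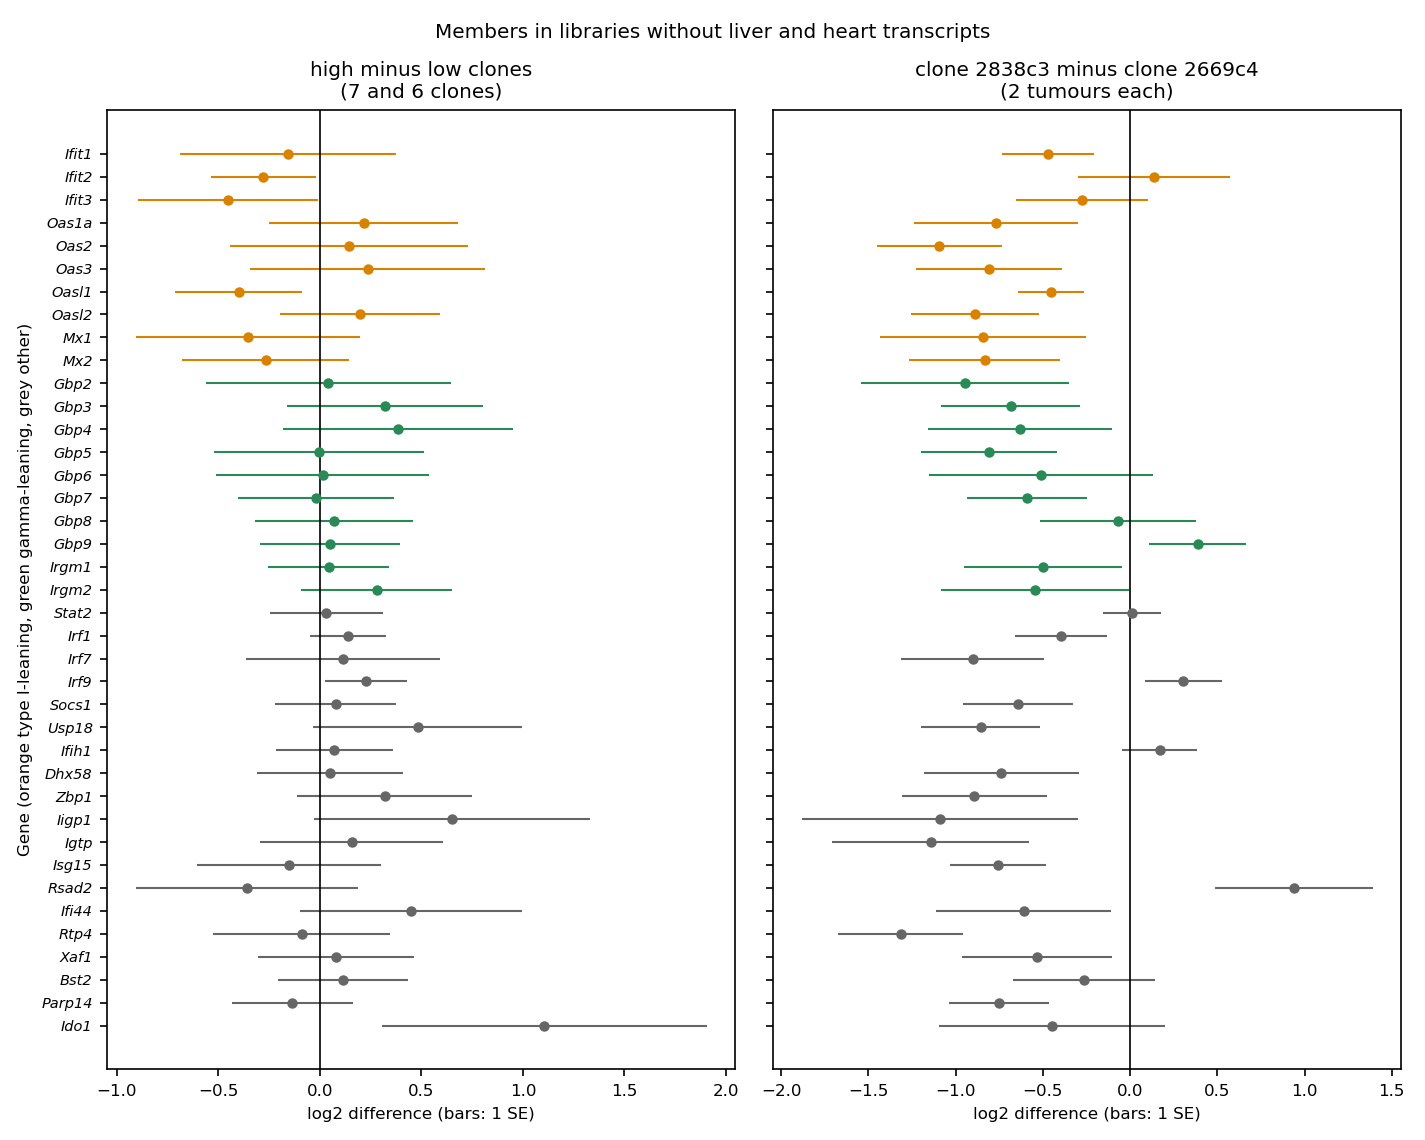
Points are log2 differences and bars 1 SE, from edgeR, for high minus low clones on the left and for clone bulk_2838c3 minus clone bulk_2669c4 on the right. On the left the bars of most members cross 0; on the right 33 of 39 points lie below 0, and none in either panel was called.

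Between intermediate and low clones no member was called, and the 2 intermediate clones stood at opposite ends of the whole set. Ifit1 held 2.22 CPM in bulk_6422c5 and 15.05 CPM in bulk_7160c5, against 4.58, 8.32 and 16.9 CPM in low clones. Gbp2 held 5.65 CPM in bulk_6422c5 and 55.4 CPM in bulk_7160c5, against 10.1, 44.9 and 74.0 CPM in low clones. For both genes bulk_6422c5 lay below the low clones and bulk_7160c5 within their range. The members were not called, 0 of 39 beside 0.0% of all genes, and at an unadjusted p under 0.05 it was 0 of 39 beside 6.27% (1123) in edgeR's quasi-likelihood test, while DESeq2 called 26 genes. The medians of the log2 differences were -0.01 for the type I-leaning genes, -0.06 for the gamma-leaning genes and -0.01 over all genes. Without bulk_6422c5 they were 0.77 and 0.65, with 36 of 39 members positive. Without bulk_7160c5 they were -1.61 and -1.81, with 1 of 39 positive. In both cases the intermediate group is 1 clone, assumed to vary like the clones of the other groups, and 147 and 2 genes were called, none a member. Of the 5 tested T and NK markers 4 had an unadjusted p under 0.05 in edgeR. Summed over the 6 markers listed, they held 7.69 CPM in bulk_6422c5 and 31.8 CPM in bulk_7160c5, against 1.57, 5.38 and 11.6 CPM in low clones. For this sum bulk_6422c5 lay within the range of the low clones, unlike for Ifit1 and Gbp2. The single markers differed. Of the sum in bulk_6422c5, Trbc2 gave 3.75 CPM and Cd4 2.54 CPM. That Trbc2 value lay above the low clones (0.175 to 1.19 CPM), while Cd3e, at 0.787 CPM, lay within their range (0.175 to 2.60 CPM). The part of these cells in the members' values was not tested.

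The clones with 2 tumours each allowed a comparison of tumours: bulk_2838c3, labelled high, with bulk_2669c4, labelled low. Here 33 of the 39 members had negative log2 differences, bulk_2838c3 minus bulk_2669c4, yet 0 were called by edgeR's quasi-likelihood test with Benjamini-Hochberg adjustment, beside 0.168% of 19002 genes (32), and 4 had an unadjusted p under 0.05, beside 22.9% of all genes. DESeq2 called 1 of the 39 members, lower, beside 5.17% of all genes (1613). With no filter on low counts edgeR called 8 of the 39, all lower, beside 9% of all genes (2809). The medians were -0.79 for the type I-leaning genes and -0.57 for the gamma-leaning genes, against 0.06 over all genes. Without tumour 3 of bulk_2838c3, which leaves 1 tumour of that clone, they were -0.87 and -0.79, against -0.03 over all genes. Rtp4, an interferon-induced antiviral protein, held 4.54 and 6.69 CPM in the bulk_2838c3 tumours, against 10.5 and 17.2 CPM in the bulk_2669c4 tumours. Oas2 held 3.59 and 6.80 CPM in bulk_2838c3, against 9.86 and 12.1 CPM in bulk_2669c4. In both genes the clones did not overlap, with log2 differences of -1.32 (adjusted p 0.125) and -1.09 (adjusted p 0.168). Isg15 and Parp14, at -0.76 and -0.75, were the other 2 members under an unadjusted p of 0.05. Rsad2 ran the other way, with 45.6 and 18.6 CPM in bulk_2838c3, against 16.1 and 17.2 CPM in bulk_2669c4.

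The gamma-leaning part of this difference rested on 1 tumour. Gbp2 held 38.8 and 28.8 CPM in bulk_2838c3, against 28.3 and 101.3 CPM in bulk_2669c4. Within clone bulk_2669c4 tumour 4 exceeded tumour 3 for 37 of the 39 members, with a median log2 ratio of 1.04 for the gamma-leaning genes and 0.27 for the type I-leaning ones, and the largest ratio was that of Iigp1, 2.46. Without tumour 4 the gamma-leaning median was 0.13 and 15 of 39 members were positive. Within bulk_2838c3 tumour 3 exceeded tumour 2 for 25 of 39 members, with medians of 0.79 for the type I-leaning genes and 0.17 for the gamma-leaning ones, from -1.27 for Rsad2 to 1.22 for Oas1a. In the same tumours the T and NK markers summed to 24.3 CPM in tumour 3 and 4.40 CPM in tumour 2, and the macrophage markers to 765.1 and 206.6 CPM. In bulk_2669c4 these sums were 11.3 CPM in tumour 4 and 12.01 CPM in tumour 3 for T and NK markers, and 392.5 and 706.0 CPM for macrophage markers. Their part in the members' differences was not tested. The arm with the larger median was the gamma-leaning one in bulk_2669c4 and the type I-leaning one in bulk_2838c3, and with 1 tumour on each side this was not tested.

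Over clones the arms moved largely together. The mean levels of the type I-leaning and gamma-leaning genes correlated at 0.84 over the 15 clones without liver and heart transcripts and at 0.93 over the 16 clones with them. Both values are descriptions, since the points share libraries and depth. Among gene pairs over the same 15 clones, the median correlation was 0.80 within the gamma-leaning arm (45 of 45 positive), 0.73 within the type I-leaning arm (38 of 45) and 0.68 between the arms (92 of 100). The Gbp genes of chromosome 3 correlated most closely among themselves (median 0.94), those of chromosome 5 at 0.81, and the 2 clusters with each other at 0.79. Igtp and Iigp1 were the closest pair (0.97), Gbp2 was closest to Iigp1 (0.97), Gbp5 to Gbp2 (0.96), Oasl2 to Usp18 (0.96) and Oas1a to Irf7 (0.94).

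Some clones departed from the common line. Clone bulk_6555c3, labelled high, stood at -0.65 for the type I-leaning level and 0.21 for the gamma-leaning level. The reverse held in bulk_6694c2, labelled low, at -0.66 and -1.50, and in bulk_6422c5, at -1.15 and -1.66. In bulk_6499c3, labelled low, the type I-leaning level of 0.83 exceeded the gamma-leaning level of 0.34. High and low clones occurred on both sides of the line of equal levels.

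**Figure D4:**
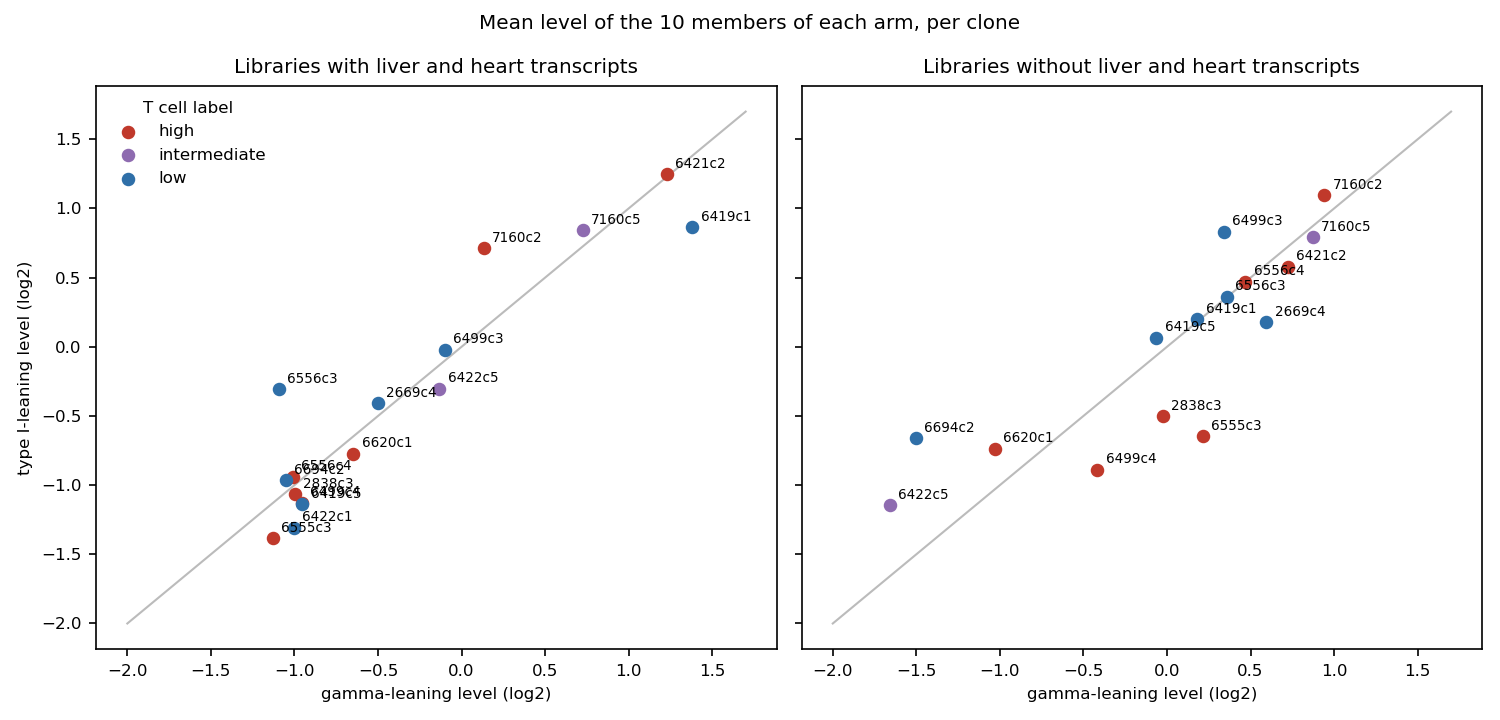
Each point is a clone, with the mean of the 10 gamma-leaning genes across and of the 10 type I-leaning genes up, as log2 CPM minus each gene's mean over the 15 clones without the transcripts; libraries with liver and heart transcripts are on the left and those without on the right, and the grey line marks equal levels. Clones follow the line in both panels, and bulk_6555c3 lies below it and bulk_6694c2 above it on the right.

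Oasl1 was the type I-leaning gene that did not follow the rest. Its correlation was negative with 30 of the other 38 members (median -0.24), and without it all 36 type I-leaning pairs were positive. Its CPM was 57.3 in bulk_6422c5, the clone with the lowest overall level of the members, and 17.5 in bulk_7160c5 and 19.2 in bulk_7160c2, the clones with the highest. Clone bulk_6620c1, which had a low overall level, also had a low Oasl1 value of 18.6 CPM, and bulk_6556c4, with a high overall level, had 56.5 CPM, so the relation had exceptions. Its range over clones was narrow, 17.5 to 57.3 CPM.

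Single genes were related over the 15 clones in 11 chosen pairs, with permutation p-values adjusted over the 11, of which 9 are reported. Within the arms, Ifit1 and Ifit3 gave r = 0.88 (Spearman's rho 0.90, permutation p 7e-05, adjusted 0.000257), and Gbp2 and Igtp gave r = 0.95 (rho 0.95, permutation p 1e-05, the smallest these permutations can give, adjusted 0.00011). Across the arms, Ifit3 and Gbp2 gave r = 0.52 (rho 0.49, permutation p 0.0477, adjusted 0.0656).

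T cell transcripts were related to Gbp2 and not detectably to Ifit3, and the difference between the correlations was not tested. Cd8a, of cytotoxic T cells, and Gbp2 gave r = 0.67 (rho 0.71, permutation p 0.00776, adjusted 0.0142). Without the 2 clones farthest from the median of Cd8a, bulk_2838c3 and bulk_6421c2, r was 0.68 (adjusted permutation p 0.0319). With a prior count of 0.5 in place of 2, the farthest clones were bulk_6421c2 and bulk_6694c2. Without those, r was 0.57 (adjusted permutation p 0.0687). Cd8a and Ifit3 gave r = 0.09 (rho 0.10, permutation p 0.737, adjusted 0.811). Ifng itself was nearly absent, at 0 to 0.452 CPM over the clones. With Gbp2 it gave r = 0.60 (rho 0.62, permutation p 0.0189, adjusted 0.0297), and r was 0.48 (adjusted permutation p 0.135) without bulk_2669c4 and bulk_6421c2, and with Ifit3 it gave r = -0.06 (rho -0.09, permutation p 0.833, adjusted 0.833). Ifit3 differed from its arm here: with the mean type I-leaning level the correlations were 0.48 for Cd8a and 0.38 for Ifng, and with the gamma-leaning level 0.71 and 0.58, as descriptions over the same 15 clones.

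The factors gave mixed results. Irf7 and Ifit3 gave r = 0.74 (rho 0.74, permutation p 0.00258, adjusted 0.0071), and 0.62 (adjusted permutation p 0.0577) without bulk_6422c5 and bulk_7160c2. Irf1 and Gbp2 gave r = 0.68 (rho 0.52, permutation p 0.00479, adjusted 0.0105), and 0.35 (adjusted permutation p 0.288) without bulk_6422c5 and bulk_6694c2, so this relation rested on those clones. Within the 7 high clones r was positive for these 9 pairs, from 0.36 to 0.98. Within the 6 low clones it was 0.93 for Gbp2 with Igtp, but -0.12 for Ifit3 with Gbp2, -0.83 for Ifng with Ifit3, -0.71 for Cd8a with Ifit3 and -0.01 for Irf7 with Ifit3.

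The same pairs were related in the libraries with liver and heart transcripts. There Ifit3 and Gbp2 gave r = 0.95 over 16 clones (rho 0.92, permutation p 1e-05, the smallest these permutations can give, adjusted 1.83e-05), and Cd8a and Ifit3 gave 0.83. Leaving out the 7 nearly alike libraries, these values were 0.94 and 0.71 over 9 clones. In the same libraries the liver and heart markers correlated at -0.77 with the type I-leaning level and at -0.69 with the gamma-leaning level over 16 clones, against 0.01 and -0.03 over the 15 clones without the transcripts. The T and NK markers correlated with the levels of the arms at 0.77 and 0.71 with the transcripts and at 0.41 and 0.67 without them, type I-leaning first, and the macrophage markers at 0.73 and 0.78 with them and 0.56 and 0.72 without. The 7 nearly alike libraries are among the 16 clones with the transcripts, and the marker correlations were not computed without them. The part of any cell type in the relations was not tested.

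Members passed the test between the 2 kinds of library. With the clone as a block and all 34 labelled libraries, edgeR's quasi-likelihood test called 23 of the 39 members between libraries with and without liver and heart transcripts, 21 lower and 2 higher with them, but it also called 51.3% of the 16623 genes tested, 24.3% lower and 27.0% higher. The members' median log2 difference was -0.55, with -0.23 for the type I-leaning genes, -0.57 for the gamma-leaning genes and 0.01 over all genes. Socs1 fell most: it held 2.30, 3.09 and 9.53 CPM (lowest, median and highest clone) with the transcripts and 3.68, 7.85 and 14.9 CPM without them, a log2 difference of -1.22 (SE 0.16, adjusted p 2.96e-06). Irf1 fell to 33.9, 42.5 and 96.1 CPM with the transcripts, against 38.8, 77.7 and 102.4 CPM without (adjusted p 0.000199), and Oas1a to 1.84, 3.26 and 20.5 CPM, against 3.11, 10.1 and 25.6 CPM (adjusted p 0.00126). The ranges overlapped for each of these 3 genes, and the middle clone was lower with the transcripts.

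In the type I-leaning arm Oas1a, Oas2, Oas3 and Oasl2 fell and Mx2 rose, while Ifit1 (-0.06), Ifit2 (-0.01) and Oasl1 (0.12) were not called. In the gamma-leaning arm Gbp3, Gbp5, Gbp7 and Gbp8 fell and Gbp9, whose annotation overlaps that of Gbp8, rose by 0.61 on the log2 scale (adjusted p 0.00203). Whichever clone was left out, 1 member was called higher in place of 2, and 15 to 27 were called lower. In these fits 46.7 to 53.8% of all genes were called in either direction. Both feedback inhibitors, all 3 sensors, Irf1, Irf7, Igtp, Isg15, Rsad2, Rtp4, Bst2 and Parp14 also fell. Among related genes the antigen-processing genes Psmb8, Psmb9 and Tap1 fell by 1.23, 1.18 and 1.09, and Serping1, a complement inhibitor, rose by 1.06. Markers of other cell types moved as well: the fibroblast marker Col1a1 fell by 2.07 while another, Dcn, rose by 1.01, the dendritic cell marker Batf3 fell by 1.52, the ductal markers Krt19 and Krt8 fell by 0.47 and 0.26, and the macrophage marker C1qa fell by 0.78. These were 1 of 3 fibroblast markers in each direction, 1 of 3 for cross-presenting dendritic cells, 2 of 4 ductal and 1 of 4 macrophage markers, and 0 of the 5 tested T and NK markers were called. Their part in the members' change was not tested.

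Most of these calls were lost without the 7 nearly alike libraries. Without them, a choice made after seeing the data, 2 of the 39 members were called, Socs1 (-1.15, adjusted p 0.00319) and Bst2 (-0.74, adjusted p 0.00842), both lower, beside 29.3% of the genes then tested, and the medians were -0.10 for the type I-leaning genes and -0.48 for the gamma-leaning genes. By clone, the mean over all members was lower with the transcripts in 12 of 15 clones. It was higher in bulk_6422c5 (by 1.04), bulk_6419c1 (by 0.71) and bulk_6421c2 (by 0.49), and over the 15 clones the difference ran from -1.55 to 1.04 with a median of -0.59. The order of clones differed between the kinds of library: bulk_6422c5, the lowest clone without the transcripts at -1.30, stood at -0.25 with them, above 10 of the other clones.

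**Figure D5:**
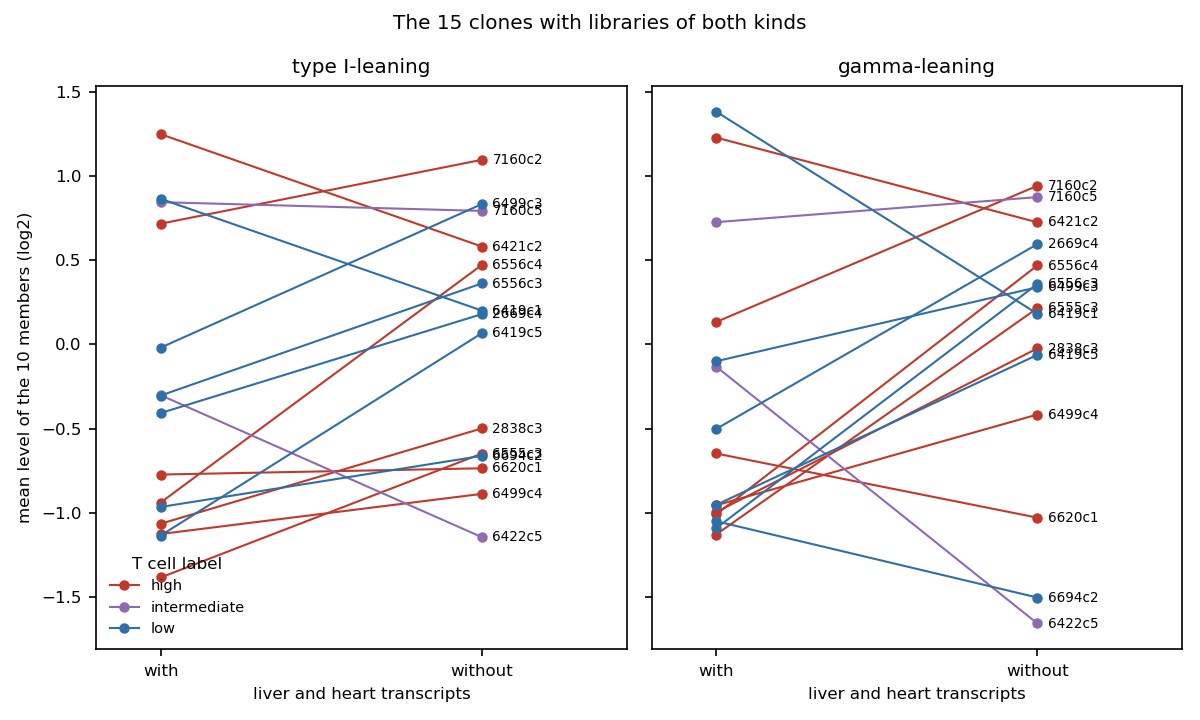
Lines join the mean level of an arm in libraries with (left end) and without (right end) liver and heart transcripts for the 15 clones that have both, on the log2 scale used for the arms. The type I-leaning level is higher with the transcripts in 4 clones and the gamma-leaning level in 5, and the lines cross.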

How the data were processed

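The deposited table holds raw counts of reads per gene, which the authors made from bulk RNA-seq of 37 tumours; the submitters' processing notes name STAR, featureCounts and the mm10 build, with no versions, and do not say whether counting used the strand. Per the labels' protocols, RNA was extracted with the Qiagen RNeasy Micro Kit, made into libraries with an NEB kit and sequenced on an Illumina NextSeq 550. Total counts ran from 7.39 to 161.7 M (1000000 counts each). Levels are CPM, and levels of the arms are means of log2 CPM with a prior count of 2.

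Libraries were classed by a sum of Myh6, Myh7, Cps1 and Serpina3k over 10 CPM. Tumours of a clone were summed within a class, except in the comparison of bulk_2838c3 with bulk_2669c4 and of the classes. Tests used edgeR 4.0.16 (quasi-likelihood, TMM scaling, its default filter on low counts) in R 4.3.3 over all genes, with Benjamini-Hochberg adjustment and a threshold of 0.05. Alternatives used DESeq2 1.42.0, limma 3.58.1 and other filters, scalings and libraries. Scripts were tested on simulated data. Relations used 100000 permutations, or all of them under 10 clones, two-sided. The members and lists were chosen with earlier results of these data known. Named for values by rule were, in each arm and among the others, the 3 members with the widest range over clones and the 2 with the smallest p between high and low clones, plus members called in a comparison. The other 2 of the 11 relations are not reported here.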

Additional observations from a re-analysis of the deposited data

Results flagged for a closer look

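Among 30 groups of clones examined for a single distant value, 2 held one, both from low clone bulk_6694c2; such a rule flags about 1 group in 20 by chance. Gbp6 was 0.306 on the log2 CPM scale in bulk_6694c2, while the other 5 low clones lay between 2.54 and 3.00, a gap of 0.827 of the whole range. The mean log2 CPM of the gamma-leaning arm was 2.13 in bulk_6694c2, against 3.57 to 4.23 in the other low clones, a gap of 0.687 of the range. The 2 values share a gene and a library.

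Of the 3 tumours with no phenotype label, 2 exceeded all 34 labelled libraries for many members. The first tumour of clone bulk_6883c1, with 161.7 M counts, was above them for 30 of the 39 members, 7 of 10 in each arm. The first tumour of clone bulk_6883c4, with 55.2 M counts, was above them for 22 members, 3 of 10 type I-leaning and 8 of 10 gamma-leaning. The same count was not made over all genes, so these numbers do not show whether the members differ from other genes in this. Both libraries held liver and heart transcripts. Gbp2 was 153.1 CPM in bulk_6883c1, 222.6 CPM in bulk_6883c4 and 11.7 CPM in the second tumour of bulk_7062c3. For Ifit1 the values were 84.0, 34.9 and 10 CPM, and for Cd8a 8.47, 31.1 and 0.159 CPM, in the same order of clones. The bulk_7062c3 tumour, with 31.5 M counts and no liver and heart transcripts, exceeded all labelled libraries for 0 members.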

How the results depend on the processing

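Across the alternatives, 1069 log2 differences of single members and 165 medians kept their direction and side of the threshold, and 48 of the log2 differences turned. Another 56 log2 differences were classed as weaker and 35 as stronger, and 7 medians as moved. Where no value shows a cause, the cause was not tested. Genes called between high and low clones were 0 and became 77 with all 34 tumours as units and their number as a replicate block, and 35 with DESeq2, and 0 to 1 without 1 clone. Between intermediate and low clones 0 became 828 in that fit with the replicate block, 677 with limma voom on the 34 tumours with the kind of library as a term, 26 with DESeq2, 1 with tumours ignoring the clone, and 0 to 147 without 1 clone. Both fits change libraries and units too, so the block or tool alone was not tested. The tumour number coincides with the kind of library and pairs no animals. Between bulk_2838c3 and bulk_2669c4, 32 became 2809 with no filter, 14 with the 1 CPM filter, 1613 with DESeq2, and 6 to 2560 without 1 tumour, when the lone tumour is assumed to vary like those of the other clone. In the fits that kept both tumours of each clone, the members called were 8 of 39 with no filter, beside 9% of all genes. With DESeq2 they were 1 of 39, beside 5.17%. Some members were also called, in both directions, without tumour 3 of bulk_2838c3, a fit that leaves 1 tumour of that clone. Between libraries with and without liver and heart transcripts, 8525 became 4926 without those over 4000 CPM, a choice made after seeing the data.

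The type I-leaning median for intermediate minus low clones was 0.56 in libraries with the transcripts, 0.50 with limma voom on 34 tumours and -1.61 to 0.77 without 1 clone, and the gamma-leaning one 0.52, 0.35 and -1.81 to 0.65. The gamma-leaning median for bulk_2838c3 minus bulk_2669c4 ran from -1.14 to 0.13 without 1 tumour.

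With the transcripts, r was 0.95 for Ifit3 with Gbp2, 0.50 for Ifng with Ifit3 and 0.83 for Cd8a with Ifit3. Without the libraries over 4000 CPM, also chosen after seeing the data, these were 0.94, 0.43 and 0.71, and Ifng with Gbp2 was 0.65. Without the 2 farthest clones r was 0.48 for Ifng with Gbp2, 0.054 for Ifng with Ifit3, 0.62 for Irf7 with Ifit3 and 0.35 for Irf1 with Gbp2.

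Signs of uncalled members turned. For high minus low clones, leaving out 1 clone gave -0.56 to 0.11 for Ifit1, -0.26 to 0.63 for Oas2, -0.27 to 0.52 for Oas3, -0.17 to 0.27 for Gbp2 and -0.20 to 0.19 for Gbp6. Ifit1 was 0.29 without libraries over 10 CPM of Alb. In libraries with the transcripts Gbp4 was -0.28, Gbp6 -0.48 and Rsad2 0.30. With tumours ignoring the clone Gbp2 was -0.056 and Gbp6 -0.0097. Gbp6 was -0.19 with all 34 libraries and -0.073 with limma voom on 34 tumours. In the fit of 34 tumours with the replicate block Gbp6 was -0.15 and Rsad2 0.13. For bulk_2838c3 minus bulk_2669c4, leaving out 1 tumour gave -0.61 to 0.57 for Ifit2, -1.20 to 0.19 for Gbp4, -1.63 to 0.17 for Gbp2, -1.21 to 0.72 for Gbp6, -1.16 to 0.37 for Irgm2, -1.14 to 0.79 for Ido1 and -1.89 to 0.58 for Iigp1. Between kinds of library, leaving out 1 clone gave -0.024 to 0.18 for Oasl1, -0.18 to 0.019 for Ifit2 and -0.25 to 0.12 for Gbp4. Library size alone gave 0.017 for Ifit2 and 0.0064 for Gbp4. Without the libraries over 4000 CPM, Ifit1 was 0.25, Oasl1 -0.19, Gbp4 0.061 and Iigp1 -0.23.

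Depth limited the lowest genes: Ifng stayed under 1 CPM in the clones used for the relations, and Ifnb1, Ifna2 and Ifna4 were not tested.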
